A study of Mus musculus with 3 samples.

Results

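The translation initiation and elongation factors were followed in 3 media in J774A.1, a mouse cell line with macrophage properties. The 58 genes were those of 27573 on the array whose name in the scanner files begins with Eif or Eef and a digit. The Eif4ebp binding proteins were left out. This rule uses names and no measured value, but the group was chosen with earlier results of these data known. They were read by 134 probes. Of the 58 names, 17 are older ones: most eIF3 subunits appear as Eif3s names, Eif2c1 to Eif2c4 are now Ago1 to Ago4, and Eif1ay is by its accession Eif1ax, with its probe placed on the X chromosome. The Argonautes (Ago) bind small RNAs and are no part of the translation machinery proper, and they are given separately. Eif2d, Eif3m, Eif6 and Eif1ad stand in the files under other names and fall outside the rule.

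By the samples' source names, the cells spent 6 h in one of 3 media. These were RPMI, Earle's balanced salt solution (EBSS, salts and glucose), or EBSS with SB202190, which blocks the MAP kinase p38. RPMI was supplemented with 10% fetal bovine serum and SB202190 was added at 10 µM, which the source names do not give. The series' design text can also be read as RPMI being present in every medium, and the source names were followed. Each medium had 1 sample, read once in the red dye Cy5 and once in the green dye Cy3 on 3 two-colour arrays that close a loop, so no difference below has a replicate check and no p-value is given. EBSS differs from RPMI in serum, amino acids and vitamins together, which cannot be told apart here. The sources used here do not say whether the cells without inhibitor received its solvent, or whether both channels of a medium came from 1 extract. Of the macrophage markers, 11 of 11 were well above background in all media, and of markers of other cell types only Lck and Hba-a1 were.

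As background, eukaryotic translation starts when eIF4E binds the mRNA cap, the scaffold eIF4G and the helicase eIF4A prepare the mRNA, and a small ribosomal subunit with eIF1, eIF1A, eIF3, eIF5 and the eIF2 ternary complex scans to the start codon. Starved cells slow this by 2 known routes: the eIF2ak kinases phosphorylate eIF2 and so block its exchange factor eIF2B, and low mTORC1 activity frees the 4E-BP proteins to hold eIF4E. Both routes act on proteins, whereas the arrays measured only mRNA.

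Values below are log2 ratios between media, estimated from all 3 arrays after normalization, with a technical standard error (SE) from how well the loop closed for probes of like intensity. This SE covers the reading of 1 sample and not the spread between cultures. It was 0.08 to 0.18 for the measured members, with a median of 0.18 over them and 0.11 over all measured genes. A gene was counted as different when its ratio was at least 2-fold (1 on the log2 scale) and 2 estimates had the same sign and a size of at least 0.5: the one from the array that held both media, and the one reached by way of the remaining 2 arrays. A moderate rule used 0.5 and 0.25. In total 53 of the 58 genes were measured, meaning that both readings of 1 medium or more stood well above background. Eif2s3y, Eif2b3 and Eef1a2 were above background on no array, and Eif5a2 and Eif2c4 on 1 array of each medium. No spot was marked as saturated. Ratios compare shares of the labelled RNA, so less RNA per cell and fewer cells cannot be told apart.

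Most of the factors lay close to 0 in EBSS, and 4 stood apart. Relative to RPMI, Ago2, the slicing Argonaute (Eif2c2 in the files), was 2.81-fold higher, the start codon factor Eif1a 2.36-fold higher and the helicase Eif4a2 2.31-fold higher, while Eif2b4, the delta subunit of the exchange factor eIF2B, was 2.48-fold lower. A brighter Ago2 probe, filed under another name and outside the rule, gave a smaller log2 ratio, 1.12 beside 1.49. The 3 genes counted higher were 5.66% of the 53 measured, beside 4.49% of all 11874 measured genes, and the 1 counted lower was 1.89%, beside 2.82%. By the moderate rule 6 were higher (11.3%, beside 13% of all genes) and 2 lower (3.77%, beside 11.3%). The counted shares and the moderate increases were near those of all genes, while the share of moderate decreases was lower. The median over the members was 0.03, beside 0.00 over all genes, and 45 of 53 (84.9%) lay within 0.5 of 0, beside 75.1% of all genes.

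Intensity-dependent (loess) normalization sets the middle of each brightness class to 0, and many of these factors fall in the brightest classes, where the SE was 0.18. With each array centred on its median instead, the median over all measured genes was 0.81 and that over the members 1.20 in EBSS against RPMI, and 32 members (60.4%, beside 35.8% of all measured genes) were counted higher and 0 lower. A shift shared by bright genes therefore cannot be told apart from zero, and the signs of small ratios given below for bright genes depend on this choice.

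With SB202190 in EBSS, against EBSS alone, the same medians were 0.02 and 0.00. Ago2 was 2.39-fold lower, with a log2 ratio of -1.26, beside -1.06 at the brighter probe outside the rule. Eif1a was 2.24-fold lower and Eif4a1, the main helicase of the cap complex in most cells, 2.10-fold lower. No member was counted higher, beside 0.889% of 11693 genes, and these 3 counted lower were 5.66%, beside 2.93%. The moderate rule took 2 higher (Eif2b4 and Eif4a2; 3.77%, beside 7.12% of all genes) and 6 lower (11.3%, beside 11%). This comparison shares its EBSS sample with the first, so an error in that sample would move both in opposite directions, and nothing is read from opposite signs.

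Between EBSS with SB202190 and RPMI, Eif4a2 was 3.62-fold higher and was the only member counted, 1.89% of the 53 beside 1.47% of 11864 genes. None was counted lower, beside 2.43% of all genes. By the moderate rule Eif4a2 and Eif1 were higher (3.77%, beside 7%) and Eef1e1, Eif4a1, Eif3s1 (Eif3j1) and Eif4e2 lower (7.55%, beside 9.24%). The probes of Eif4e2 differ in sign here, and 1 of the 3 probes of Eif4a1 gave -0.03. The median was 0.06, beside 0.01 for all genes. In this estimate the ratio is the sum of the other two ratios, so it adds a view of the same 6 readings and no new sample.

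**Figure D1:**
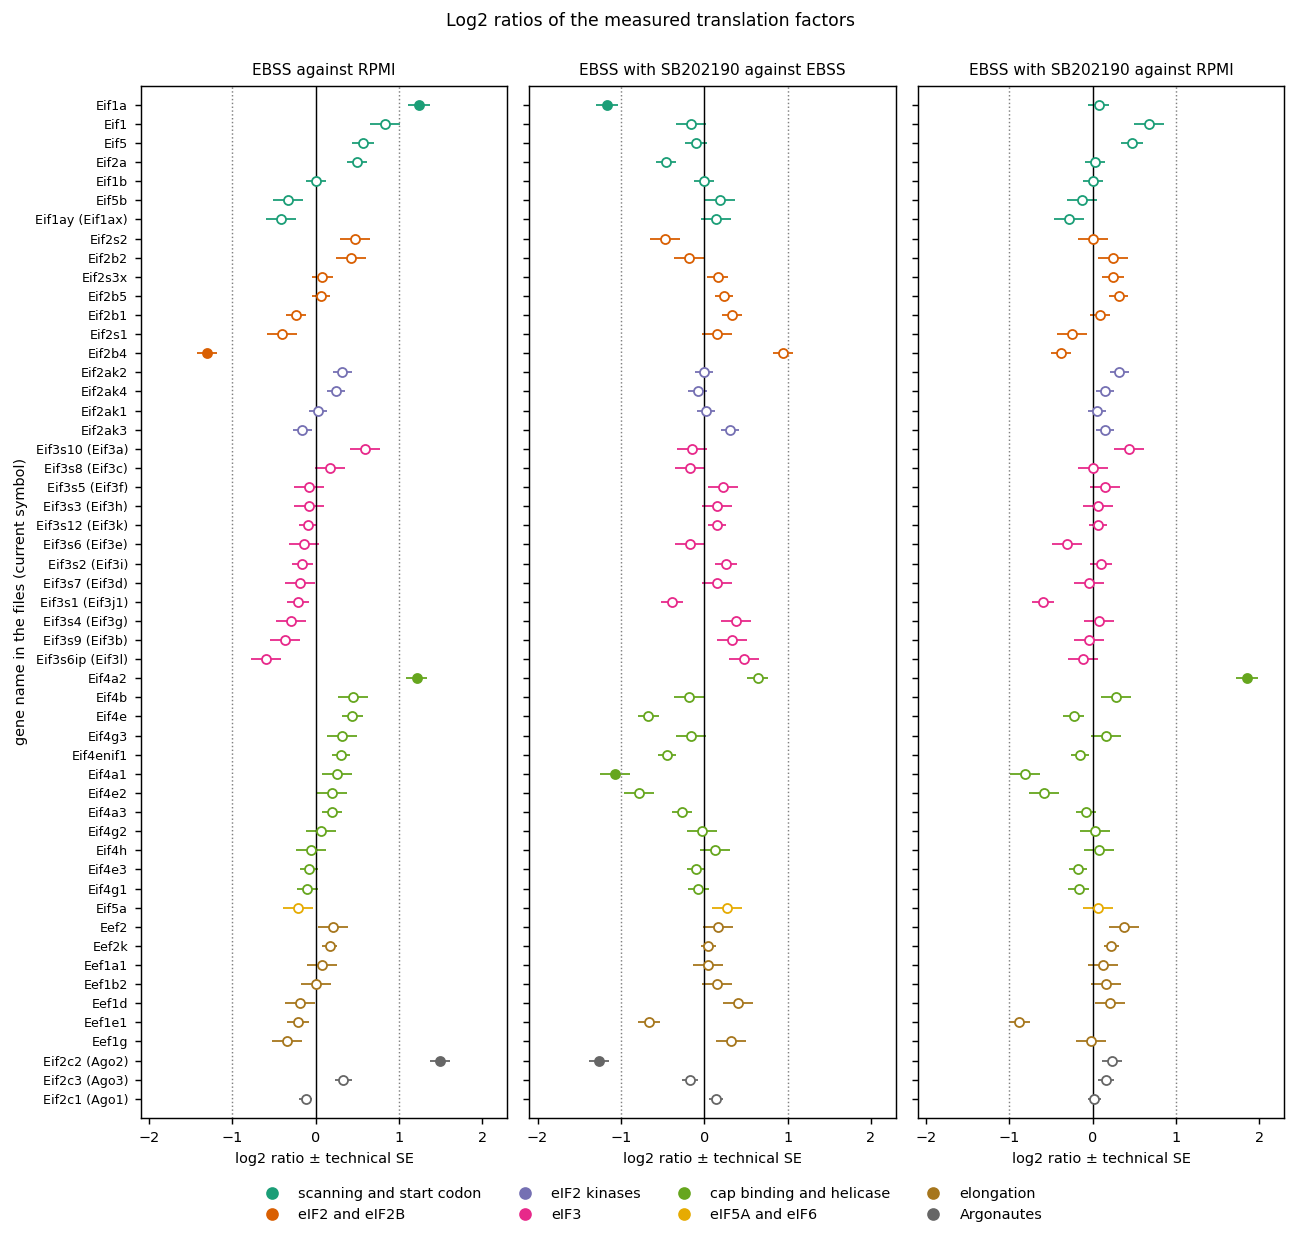
Log2 ratio (x axis) with technical SE bars of the 53 measured factors (y axis), coloured by role, in the 3 comparisons; filled points were counted and dotted lines mark a 2-fold ratio. Eif1a, Eif4a2, Ago2 and Eif2b4 stand apart in EBSS against RPMI, Eif1a, Eif4a1 and Ago2 with the inhibitor, and Eif4a2 alone between EBSS with SB202190 and RPMI.

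The eIF4A helicases unwind the 5′ ends of mRNAs, and the paralogues Eif4a1 and Eif4a2 had ratios of opposite sign with the inhibitor after loess, though not with median centring. Their promoters are shown to set the upstream sequences of the pair side by side. The 250 bases before the annotated start are given from RefSeq's GRCm38.p6 table for Eif4a1 (chr11:69672424-69672673, minus strand) and Eif4a2 (chr16:23107218-23107467, plus strand), 5′ to 3′ on the gene's strand, with capitals marking an E-box.
Eif4a1 promoter: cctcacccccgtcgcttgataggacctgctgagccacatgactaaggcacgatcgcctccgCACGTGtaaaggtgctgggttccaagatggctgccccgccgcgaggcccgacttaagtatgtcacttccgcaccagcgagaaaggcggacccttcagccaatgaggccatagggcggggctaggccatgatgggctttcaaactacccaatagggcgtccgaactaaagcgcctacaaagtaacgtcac
Eif4a2 promoter: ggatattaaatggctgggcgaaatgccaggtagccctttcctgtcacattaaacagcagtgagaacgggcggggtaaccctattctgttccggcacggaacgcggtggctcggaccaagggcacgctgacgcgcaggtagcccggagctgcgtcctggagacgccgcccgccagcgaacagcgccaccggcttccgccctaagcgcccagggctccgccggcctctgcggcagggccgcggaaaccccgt
The E-box CACGTG begins at position -189 relative to the start of Eif4a1 and was not found in the Eif4a2 window. Both windows are rich in G and C, with 58.8% in Eif4a1 and 66.4% in Eif4a2.

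Eif4a2 was read at log2 intensities of 11.93 and 12.16 in RPMI (Cy5 and Cy3), 12.94 and 13.32 in EBSS, and 13.84 and 13.76 in EBSS with SB202190. Its readings did not overlap between any 2 media and were lowest in RPMI and highest with the inhibitor. Its log2 ratios were 1.21 ± 0.13 in EBSS against RPMI, 0.64 with the inhibitor against EBSS and 1.85 against RPMI. Its other probe, at another position of the gene, gave 1.27, 0.48 and 1.75. The ratio in EBSS was 1.39 on the array that held both media and 0.85 through the other 2 arrays, and it was 0.95, below the counted size, when the arrays were scaled to equal spread. With median centring the ratio with the inhibitor against EBSS was -0.14. The brightest Eif4a2 probe lies at chr16:23028733-23028792 on mouse build mm8, the build of the files' probe positions; where probes fall within transcripts was not analysed here.

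Eif4a1, probed at chr11:69483293-69483352, was read at 15.55 and 15.73 in RPMI, 15.88 and 15.85 in EBSS, and 14.89 and 14.84 with SB202190. Its readings with the inhibitor lay below all others, and those in EBSS lay slightly above those in RPMI. Its log2 ratio was 0.26 ± 0.18 in EBSS against RPMI, -1.07 with the inhibitor against EBSS and -0.81 against RPMI. The 3 Eif4a1 probes disagreed: with the inhibitor against EBSS they gave -1.07, -0.96 and -0.20, so the size of the difference depended on the probe. In the same order they gave -0.81, -0.56 and -0.03 with the inhibitor against RPMI. The median of its probes, -0.96, is not counted. Eif4a3, a related helicase of the exon junction complex, had ratios of 0.19, -0.27 and -0.08.

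**Figure D2:**
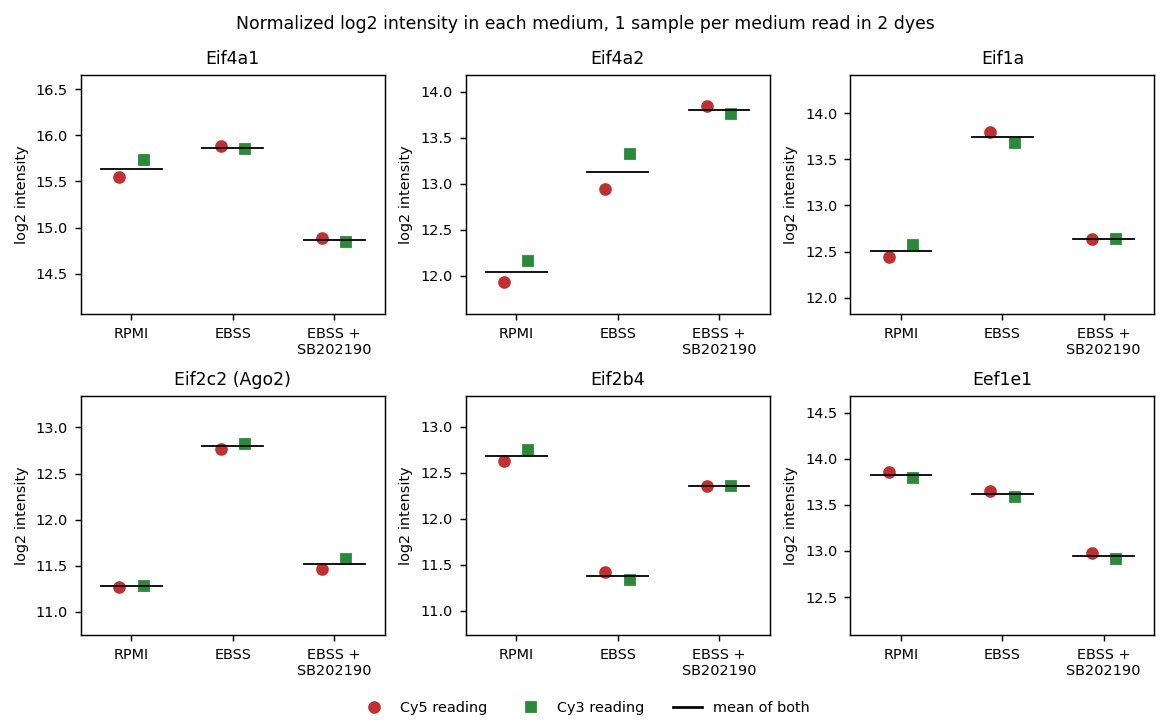
Normalized log2 intensity (y axis) of the brightest probe under the gene's name in the files, for 6 genes in each medium (x axis). The Cy5 reading is a circle, the Cy3 reading a square and their mean a line. Each panel spans the same height. Eif4a2 steps up from 11.93 and 12.16 in RPMI to 13.84 and 13.76 with SB202190, Eif4a1 is low only with SB202190, Eif1a and Ago2 are high only in EBSS, and Eif2b4 is lowest in EBSS.

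Over the 12 measured genes of the eIF4 group, the helicases included, the median was 0.23 in EBSS against RPMI. There 9 were positive, beside 5990 of 11874 genes. With the inhibitor against EBSS the median was -0.17, and 10 were negative, beside 5843 of 11693 genes. In that comparison 3 of the 12 were moderately lower, beside 11% of all genes, and 1 was moderately higher, beside 7.12%. The members as a whole had medians of 0.03 and 0.02. Eif4e, the cap-binding protein, was read at 13.46 and 13.46 in RPMI, 13.76 and 13.79 in EBSS, and 13.34 and 12.97 with SB202190. Its ratio was 0.44 ± 0.13 in EBSS and -0.67 with the inhibitor against EBSS, but its dimmer probe gave -0.01 and -0.26. Eif4e2, the cap-binding protein 4EHP that represses translation, had ratios of 0.20, -0.78 and -0.58 ± 0.18, and its 3 dimmer probes above background gave -0.70, -0.21 and -0.10 with the inhibitor against EBSS. Against RPMI those probes gave -0.38, 0.24 and 0.37, and the median of all its probes, a background-level one included, was 0.01, so the sign of its ratio to RPMI was not settled. Eif4e3 stayed within 0.18 of 0 in all 3 comparisons. Eif4b, which stimulates the helicase, gave 0.45, 0.47 and 0.56 at its 3 probes in EBSS against RPMI, below the moderate size at its brightest probe. The scaffold genes Eif4g2 and Eif4g3 had 0.06 and 0.32 in EBSS. Eif4g1 had -0.10 ± 0.13, within its technical SE of 0, so its sign was not settled. The array with both media gave 0.22 and the other path -0.73. Within each dye its EBSS and RPMI readings were close, at 12.89 and 12.94 in Cy5 and 13.15 and 13.21 in Cy3. Eif4enif1, which carries eIF4E into the nucleus, had 0.30 and then -0.45, and Eif4h lay within 0.13 of 0.

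In the scanning and start codon group 3 of 7 genes were moderately higher in EBSS (42.9%, beside 13% of all genes). Eif1a was read at 12.44 and 12.57 in RPMI, 13.80 and 13.68 in EBSS, and 12.64 and 12.64 with SB202190, so both EBSS readings lay above the other 4. Its ratios were 1.24 ± 0.13 in EBSS against RPMI, -1.17 with the inhibitor against EBSS and 0.07 against RPMI. Its direct and path values differed by little, 1.24 and 1.22 in the first comparison and -1.16 and -1.18 in the second. Its 2 other probes gave 1.03 and 0.82, and -1.0 and -0.72. The dimmest of them is placed on chromosome 12 in the files, and whether it reads another copy was not tested. Its close relative on the X chromosome, Eif1ax, went -0.42, 0.14 and -0.28 ± 0.18, with direct and path values of -0.26 and -0.73 in EBSS. How far a probe of one of these near-identical genes also reads the other was not tested.

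Eif1, which guards against starting at wrong codons, was read at 15.68 and 15.38 in RPMI, 16.38 and 16.45 in EBSS, and 16.10 and 16.16 with SB202190. RPMI was lowest in both dyes, and the ratios were 0.83 ± 0.18, -0.16 and 0.67, with 0.95, -0.35 and 0.60 at a dimmer probe that the files place on chromosome 1, away from the brightest probe on chromosome 11. Whether that probe reads another copy was not tested. Eif1b, its paralogue, was flat at 0.00 in all 3 comparisons. Eif5, which triggers GTP hydrolysis by eIF2 at the start codon, was read at 12.91 and 12.88 in RPMI, 13.27 and 13.51 in EBSS, and 13.31 and 13.20 with SB202190. That gave ratios of 0.57 ± 0.13, -0.10 and 0.47. Eif2a had 0.49, -0.46 and 0.03, and Eif5b, which joins the ribosomal subunits, -0.33, 0.19 and -0.13.

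Among eIF2 and its exchange factor, only Eif2b4 was counted, lower in EBSS (1 of 7 measured, 14.3%, beside 2.82% of all genes). It was read at 12.63 and 12.74 in RPMI, 11.42 and 11.33 in EBSS, and 12.36 and 12.36 with SB202190, at a probe on chr5:31464235-31464294 (mm8). Both EBSS readings lay below the other 4. The ratio in EBSS was -1.31 ± 0.12, with -1.30 and -1.33 by the direct array and the other path, and with the inhibitor against EBSS it was 0.94. Its second, dim probe gave -0.44 and 0.21, the median of its probes -0.87, and median centring -0.18, none of which is counted. Of the other measured subunits of eIF2B, Eif2b1 had -0.24, Eif2b2 0.42 and Eif2b5 0.06 in EBSS. Of eIF2 itself, Eif2s1, whose protein is the kinases' target, had -0.41 ± 0.18, 0.15 and -0.25, Eif2s2 0.47, -0.47 and 0.00, and Eif2s3x 0.08, 0.16 and 0.24. Dimmer probes above background gave -0.10, -0.12 and -0.22 for Eif2s1 and 0.30, -0.03 and 0.27 for Eif2s2. Those of Eif2s3x gave 0.02, -0.02 and 0.00, and 0.05, 0.00 and 0.05.

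None of the 4 eIF2 kinase genes passed either rule in any comparison. Of all genes 7% to 13% passed the moderate rule per direction and comparison, so this does not set 4 genes apart. Eif2ak4 (GCN2), the sensor of uncharged tRNA, had 0.24 ± 0.11, -0.08 and 0.15. Eif2ak3 (PERK), the sensor of the endoplasmic reticulum, had -0.16, 0.31 and 0.15 ± 0.11. Eif2ak2 (PKR), which binds double-stranded RNA, had 0.32 ± 0.11, 0.00 and 0.32. Eif2ak1 (HRI), the haem-regulated kinase, had 0.03, 0.02 and 0.05 ± 0.11. Apart from the 2 Eif2ak2 ratios against RPMI, the signs of all these ratios flipped under at least 1 other setting. Activity of these kinases was not measured.

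The 12 measured eIF3 genes form the scaffold of the scanning complex, and none was counted in any comparison. Of all genes 0.889% to 4.49% were counted per direction and comparison, so this does not set 12 genes apart. By the moderate rule 1 eIF3 gene was higher and 1 lower in EBSS (8.33% each, beside 13% and 11.3%). With SB202190 against RPMI 1 was moderately lower (8.33%, beside 9.24%). In EBSS against RPMI 10 of 12 were below 0, beside 5884 of 11874 genes. The eIF3 median was -0.15 and the quartile range 0.15, the tightest of any role with more than 1 measured gene. With median centring such small negative values turned positive, Eif3s6ip (Eif3l) from -0.60 to 0.91 and Eif3s9 (Eif3b) from -0.37 to 1.02. Eif3l was read at 16.48 and 16.18 in RPMI, 16.01 and 15.82 in EBSS, and 16.12 and 16.44 with SB202190, and was the lowest subunit in EBSS. Eif3s10 (Eif3a), the largest subunit, was the highest: 14.15 and 14.08 in RPMI, 14.79 and 14.67 in EBSS, and 14.58 and 14.58 with SB202190, with ratios of 0.59 ± 0.18, -0.15 and 0.44. Its second probe above background gave 0.81, -0.45 and 0.36. Eif3s4 (Eif3g) had -0.30, 0.38 and 0.08. Eif3s1 (Eif3j1), the loosely bound subunit, differed most from the others with the inhibitor: -0.21 ± 0.13, then -0.39 against EBSS and -0.60 against RPMI. Its 2 other probes gave -1.07 and -0.32 in the last comparison.

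The elongation factors stayed close to 0 in EBSS, where all 7 measured lay between -0.34 and 0.21 and none passed either rule. Of all genes 13% were moderately higher and 11.3% moderately lower in EBSS, so this does not set 7 genes apart. Eef1a1, which brings aminoacyl-tRNA to the ribosome, was read at 16.23 and 16.07 in RPMI, 16.35 and 16.21 in EBSS, and 16.30 and 16.28 with SB202190. Its readings in EBSS overlapped those of both other media, and the ratios were 0.08 ± 0.18, 0.04 and 0.12. Eef2, the translocase, had 0.21, 0.17 and 0.38, and Eef2k, the kinase that inactivates it, 0.17 ± 0.09, 0.05 and 0.22. The exchange subunits Eef1b2, Eef1d and Eef1g had 0.00, -0.19 and -0.34 in EBSS and 0.15, 0.40 and 0.32 with the inhibitor against EBSS. Dimmer probes above background did not show these rises with the inhibitor. They gave 0.13 and 0.03 for Eef1d and -0.14 and -0.05 for Eef1g in the same 2 comparisons. Eef1e1 (AIMP3), a protein of the multi-tRNA synthetase complex, was the exception. It was read at 13.86 and 13.79 in RPMI, 13.65 and 13.58 in EBSS, and 12.98 and 12.91 with SB202190, below all other readings with the inhibitor. Its ratios were -0.21 ± 0.13, -0.66 and -0.88, from a single probe. Eif5a, which helps ribosomes through difficult peptide bonds, had -0.21, 0.27 and 0.06 ± 0.18.

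**Figure D3:**
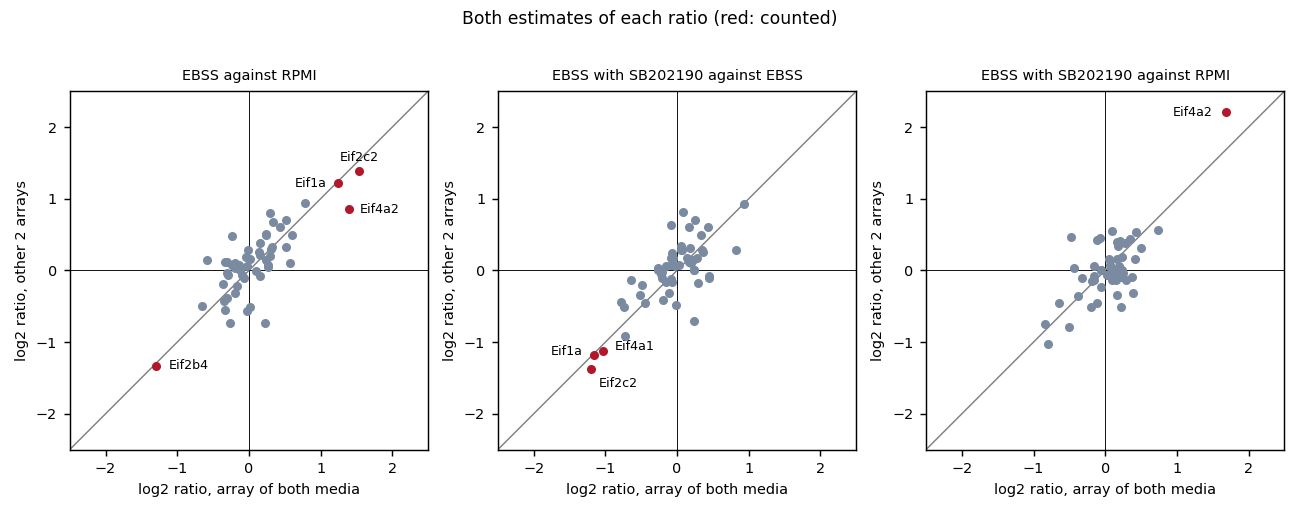
Log2 ratio of each measured factor from the array that held the media compared (x axis) against the ratio through the other 2 arrays (y axis), with counted genes in red and the diagonal marking equal values. The counted genes lie near the diagonal except Eif4a2, at 1.39 and 0.85 in EBSS against RPMI. It is also off the diagonal, at 1.68 and 2.21, in EBSS with SB202190 against RPMI. Most other genes lie around 0.

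Of the genes now named Argonautes, Ago2 was read at 11.27 and 11.28 in RPMI, 12.77 and 12.82 in EBSS, and 11.46 and 11.57 with SB202190. Both EBSS readings lay above the other 4. The ratios were 1.49 ± 0.12, -1.26 and 0.23, and the 2 other probes under this name gave 1.16 and 0.96 in EBSS, and -0.91 and -0.70 with the inhibitor. A further probe whose accession now belongs to Ago2 is filed under another name and lies outside the rule. It was brighter, with a mean log2 intensity of 13.2 beside 11.86, and gave smaller ratios of 1.12, -1.06 and 0.06. The median over the 3 probes under the name Eif2c2 with the inhibitor against EBSS, -0.91, is below the counted size and leaves this further probe out. Ago3 (Eif2c3) had 0.33, -0.17 and 0.16 ± 0.10, and Ago1 (Eif2c1) -0.12, 0.14 and 0.02 ± 0.08. Without the Argonautes 2 of 50 factors (4.0%, beside 4.49% of all genes) were counted higher and 1 lower (2.0%, beside 2.82%) in EBSS. With the inhibitor against EBSS 2 were counted lower (4.0%, beside 2.93%). These shares were near those of all genes.

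**Figure D4:**
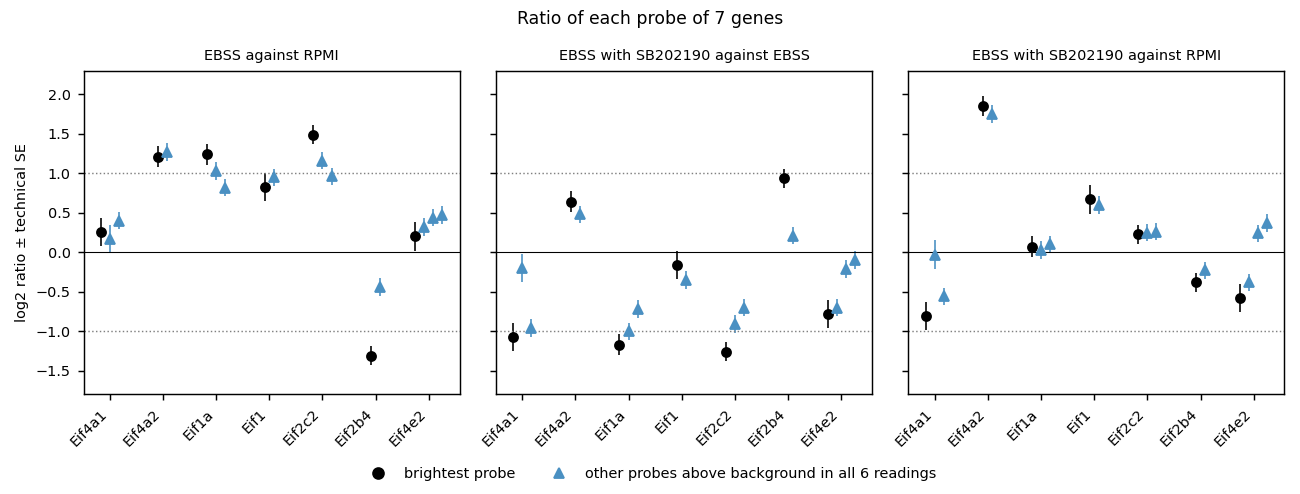
Log2 ratio (y axis) with technical SE bars of each probe filed under 7 gene names (x axis) that was above background in all 6 readings. The brightest probe under each name is a black circle and other probes are blue triangles. The probes of Eif4a2, Eif1a and Ago2 share their direction in EBSS against RPMI and with SB202190 against EBSS, while those of Eif4a1 spread from -1.07 to -0.20 and those of Eif2b4 from 0.21 to 0.94 with SB202190 against EBSS.

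The lists that follow were chosen with earlier results of these data known, so their shares beside all genes describe them and test nothing. Of 13 measured genes of the eIF2 arm and the integrated stress response, 8 were counted higher in EBSS (61.5%, beside 4.49% of all genes), with a median of 1.64. The largest were Ddit3 (CHOP) at 3.32 ± 0.12, the pseudokinase Trib3 at 3.08 ± 0.18 and Ppp1r15a (GADD34), which directs the phosphatase of eIF2, at 2.78 ± 0.12. Atf4, the transcription factor whose translation eIF2 phosphorylation favours, was at 1.64 ± 0.18. With the inhibitor against EBSS, Chac1 (-1.42) was the only 1 counted lower (7.69%, beside 2.93%), 8 were moderately lower (61.5%, beside 11%), and the median was -0.68; Trib3 had -0.94 and Atf3 -0.92. Against RPMI, 6 of the 13 (46.2%, beside 1.47%) were counted higher with the inhibitor, led by Ddit3 at 3.16, Trib3 at 2.14 and Ppp1r15a at 2.04.

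In the list of mTORC1 and MAP kinase genes that act on eIF4F and eEF2, 5 of 20 were counted higher in EBSS (25%, beside 4.49% of all genes), with a median of 0.24. They were Mknk1, the eIF4E kinase MNK1, at 1.81 ± 0.13, the mTORC1 inhibitor genes Ddit4 (REDD1) at 1.76 ± 0.12 and Akt1s1 (PRAS40) at 1.26 ± 0.11, the mTORC1 activator Rheb at 1.03 and Tsc1 at 1.02. With the inhibitor against EBSS, Ddit4 at -1.22 and Akt1s1 at -1.21 were counted lower (10.0%, beside 2.93%), and Rheb had -0.96. Against RPMI, Mknk1 at 1.39 and Mlst8 at 1.07 were counted higher (10.0%, beside 1.47%), and Tsc1 had 0.73. Eif4ebp1, which holds eIF4E when unphosphorylated, had 0.97 ± 0.18, -0.32 and 0.65, and Pdcd4, which binds eIF4A, 0.23 ± 0.09, 0.01 and 0.24.

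Of 21 measured poly(A), recycling, termination and modifying factors none was counted in any comparison, beside 0.889% to 4.49% of all genes per direction. The medians were 0.15, -0.10 and 0.04. The termination factor gene Etf1 had 0.90 and -0.76 in the first 2 comparisons, Paip2, an inhibitor of the poly(A)-binding protein, 0.88 and -0.50, and Dph1, needed for the diphthamide of eEF2, -0.85 in EBSS. Eefsec, the selenocysteine elongation factor, had 0.67 with the inhibitor against EBSS. Against RPMI, Paip2b had 0.90, the ribosome rescue factor Pelo -0.90 and Pabpc4 0.76. Of the 9 mitochondrial translation factors none was counted either, beside the same shares of all genes, so this does not set 9 genes apart. By the moderate rule 3 of them were lower in EBSS (33.3%, beside 11.3% of all genes) and 1 higher (11.1%, beside 13%). Mtrf1 had -0.84 and Tsfm -0.65 in EBSS, and Mrrf 0.61; with the inhibitor against EBSS Tufm had 0.73, Mrrf -0.73 and Mtif2 0.47; and against RPMI Mtrf1 had -0.93, Mtif2 0.54 and Tsfm -0.37.

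Promoter windows of 48 of the 58 genes were in the RefSeq table (64 windows), and 3 motifs were searched on both strands in the 250 bases before each start. The E-box CACGTG was in 13 of 64 windows (20.3%), beside 6.02% of all 32851 windows, and in 11 of 48 genes, among them Eif4a1, Eif4e, Eef2 and Eif4g1. The windows of these genes had a median G and C content of 61.4%, beside 52.4% of all windows, and whether base composition accounts for the share was not tested. TGATGNAA, taken from the C/EBP-ATF element, was in 2 of 64 (3.12%), beside 3.45%, and the forkhead motif GTAAACA in 1 (1.56%), beside 3.17%.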

How the data were processed

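Total RNA of each medium was amplified, labelled with Cy5 or Cy3 and hybridised to Agilent whole mouse genome arrays on 1 slide, per the labels' protocols: RPMI with EBSS, EBSS with EBSS plus SB202190, and EBSS plus SB202190 with RPMI (Cy5 first). The scanner software was Agilent Feature Extraction in version 9.5.3.1, as the file headers state. The deposited files give unnormalized mean intensity and local background intensity per spot in both dyes, and marks for spots well above background, per the file headers. They also give the log10 ratio of Cy5 over Cy3 from processed signals, and the authors' deposited series table gives the same ratio as log2, uncentred; both served only as alternatives, and the sources used here do not say how that table was made. The intensity of a spot limits the precision of its ratio.

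Intensities were corrected with normexp (offset 50) and normalized by loess in limma 3.58.1 (R 4.3.3), with control spots left out of the loess fit. Outlier spots stayed in that fit and were left out when spots were averaged per probe. The brightest probe stood for a gene, and for members this was the brightest under the gene's name in the files. Each ratio was the least-squares estimate over the loop, in which a dye effect cancels. Log2 intensities per channel, which set no gene against another, came from quantile scaling of the average intensities. The calculation was checked on simulated arrays. Genes named are those counted in any comparison, the 5 highest and 5 lowest per comparison, the kinases, paralogue groups, and the 3 largest ratios of each further list; others were added for their roles. Members and lists were chosen with earlier results of these data known. Tried as alternatives were 13 settings. Probe coordinates are those of the files (mm8).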

Additional observations from a re-analysis of the deposited data

How the results depend on the processing

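The counted ratios of Eif1a, Eif2c2 (Ago2), Eif4a2, Eif4a1 and Eif2b4 kept their sign under every alternative setting that could change a ratio. Some of the 13 settings alter only which genes are measured or counted and cannot move a ratio. The scanner software's ratio and the authors' series table hold the same values. Median centring in place of loess moved the results most, to 32 members counted higher and 0 lower in EBSS against RPMI and medians of 1.20, -0.70 and 0.51, where all measured genes lay at 0.81, -0.45 and 0.34; 99.5% of calls over all genes were then higher, against 61.4%, 2.28% against 23.3% with the inhibitor against EBSS, and 62.8% against 37.7% in the third comparison. The scanner software's log ratio and the authors' series table both gave 5 members higher in EBSS (Eif1 and Eif2c3 added; 9.43%, beside 8.11% of all genes) and 2 with the inhibitor against EBSS (Eif2b4 and Eif2c1; 3.77%, beside 6.69%), and higher calls over all genes were 46.8% and 50.3%. Eif2b4 was the 1 member higher with the inhibitor against EBSS after plain background subtraction, where the split was 35.5%, and after scaling to equal spread. Taking the median of all probes left 0 members lower in EBSS and 1 (Eif1a) with the inhibitor against EBSS. The path through the other 2 arrays alone gave 1 member (Eef1e1) lower against RPMI, and 33.5% higher calls with the inhibitor against EBSS. The cause of these changes was not tested. With 1 sample per medium no sample could be left out. No paired analysis was possible because each medium has 1 sample. Spots near background limit what can be said of Eif2s3y, Eif2b3, Eef1a2, Eif5a2 and Eif2c4.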
